A study of Rattus norvegicus with 6 samples.

Results

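The ADAMTS proteinases described here are 10 genes of the family, Adamts1, Adamts2, Adamts4, Adamts5, Adamts6, Adamts7, Adamts9, Adamts10, Adamts12 and Adamts15. They were matched by gene symbol in the 34156 genes of a table of RNA-seq counts, which holds 19 ADAMTS proteinase genes in all. The 6 libraries came from rat RA-FLS, fibroblast-like synoviocytes with the disease label rheumatoid arthritis and a wild-type genotype, bought from a cell supplier. In the TNF-α group, 3 libraries were made from cells given TNF-α at 10 ng/mL. In the TNF-α+EMO group, 3 libraries were made from cells given TNF-α at 10 ng/mL together with EMO (emodin, an anthraquinone of rhubarb) at 80 μmol/L. The comparison asks what EMO changed in cells that all carried TNF-α, and no library without TNF-α was part of it. The sample labels place the cells at day 5 and the study's methods at 24 h, and this difference could not be settled. The methods call the 3 libraries of a condition biological replicates without saying what was kept separate, so p-values measure the spread between these libraries, which may be technical.

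ADAMTS proteinases are secreted zinc metalloproteinases with a disintegrin-like domain and thrombospondin repeats, made as inactive precursors and held in the matrix around the cell. One branch cleaves hyalectans, the large proteoglycans aggrecan and versican, and other branches trim procollagens, cleave cartilage oligomeric matrix protein (COMP) or act on fibrillin microfibrils. In the arthritic joint, synovial fibroblasts and chondrocytes are known sources of these enzymes, and loss of aggrecan from cartilage depends largely on them.

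The libraries held 16813322 to 17794455 counts. At least 10 counts were reached by 13342 to 13365 genes in the TNF-α libraries and by 12566 to 12662 in the TNF-α+EMO libraries. No libraries were copies of each other, since the chi-square per gene between replicates was 4.62 to 5.73 with TNF-α and 6.27 to 23.5 with EMO, where replicate 3 stood farthest from replicate 1. Differences were tested with edgeR over the 13614 genes that reached 10 counts in 3 or more libraries. A gene was called changed when the Benjamini-Hochberg adjusted p over all tested genes was under 0.05 and the absolute log2 fold change (TNF-α+EMO over TNF-α) was over 1. By this rule 27.8% of all tested genes were called lower and 19.5% were called higher with EMO.

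Most ADAMTS transcripts were lower with EMO. Adamts9, which cleaves versican and aggrecan, went from 5589 or more counts per library to 5 or fewer, and Adamts2, Adamts4 and Adamts12 went from 510 or more to 13 or fewer. Adamts1, Adamts7 and Adamts10 were lower too, and each kept more than 100 counts in every library. Adamts6 was the tested member whose difference did not pass. Of the 10 members 8 were tested, of which 7 were called lower and 0 higher, beside the 27.8% of all genes called lower. Adamts2, Adamts4 and Adamts9 reached 10 counts in 3 libraries through the TNF-α group alone. Entry by this route favours genes that fall, so nothing is read from the count of 7. Among the 5 members with at least 10 counts in all 6 libraries, 4 were called lower, where 23.6% of the 11502 genes of that kind were. The normalised counts of the groups did not overlap for 8 of the 8 tested members, where 82.9% of all tested genes showed no overlap. Leaving out replicate 3 of TNF-α+EMO left 7 members called.

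The stretches of 250 bases before the annotated start were read for the 8 members that RefSeq lists in build GRCr8, a later build than the Rnor_6.0 of the counts. Only the first listed start of each gene was used, and any other start was not read. Adamts5 and Adamts15 are named only. The window of Adamts4, which held the SOX match named below, is not shown. The promoters of Adamts9, with the largest fitted fall, Adamts12, which held the NF-κB match named below, and Adamts6, which was not called, are shown 5′ to 3′ on the gene's strand with every CG dinucleotide in capitals. They lie at chr4:127019877-127020126 on the minus strand, chr2:61759737-61759986 on the plus strand and chr2:37155038-37155287 on the plus strand.
Adamts9: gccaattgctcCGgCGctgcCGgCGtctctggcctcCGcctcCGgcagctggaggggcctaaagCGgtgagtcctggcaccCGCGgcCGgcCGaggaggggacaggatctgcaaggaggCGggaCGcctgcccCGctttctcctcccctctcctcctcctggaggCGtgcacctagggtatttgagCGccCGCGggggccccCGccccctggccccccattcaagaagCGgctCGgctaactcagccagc
Adamts12: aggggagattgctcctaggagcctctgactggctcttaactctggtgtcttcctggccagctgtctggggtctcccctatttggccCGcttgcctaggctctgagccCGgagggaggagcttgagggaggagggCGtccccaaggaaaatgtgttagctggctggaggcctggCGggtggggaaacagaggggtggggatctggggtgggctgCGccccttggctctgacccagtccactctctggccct
Adamts6: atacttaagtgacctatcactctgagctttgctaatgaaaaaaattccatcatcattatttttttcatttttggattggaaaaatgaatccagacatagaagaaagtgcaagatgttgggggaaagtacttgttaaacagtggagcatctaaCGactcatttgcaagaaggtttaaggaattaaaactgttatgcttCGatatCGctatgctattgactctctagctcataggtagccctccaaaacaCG
The Adamts9 window was 71.6% G and C with 21 CG dinucleotides, that of Adamts12 was 63.6% with 5, and that of Adamts6 was 36.0% with 4. The medians over 27456 rat promoters of the same length were 52% and 6. Adamts2 (75.6%, 33 CG dinucleotides), Adamts10 (70.4%, 25) and Adamts1 (65.2%, 15) were also above both medians, and Adamts4 (51.2%, 4) and Adamts7 (46.0%, 0) were below both. Matches to binding motifs were searched on both strands for AP-1 (TGANTCA), RUNX (TGTGGT), SOX (ACAAAG) and the NF-κB consensus (GGGRNWYYCC). Here N is any base, R is A or G, W is A or T and Y is C or T. The NF-κB consensus matched Adamts12 alone, on the strand opposite to the gene's, at bases -184 to -175 from the start. On the gene's strand these bases read GGGGTCTCCC. The consensus is held by 3.53% of all promoters. The SOX letters matched Adamts4 alone, at -208 to -203, and are held by 16% of all promoters. No window of the 8 held the AP-1 letters (6.36% of all promoters) or the RUNX letters (14.1%), and these 2 matches did not overlap another motif. A match describes letters in the window and is not evidence that a factor binds there.

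**Figure D1:**
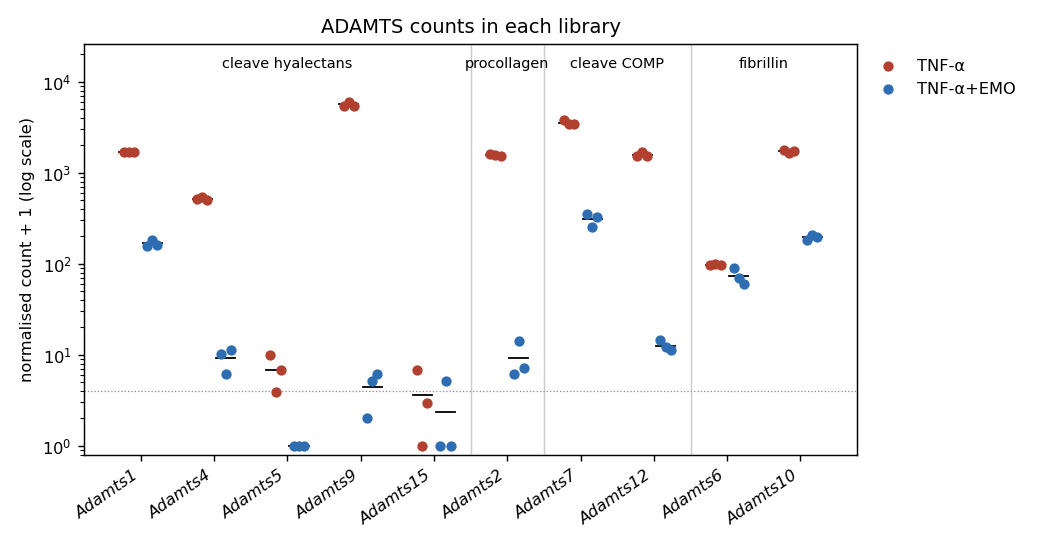
Normalised count plus 1 on a log axis for the 10 ADAMTS genes, with 1 point per library, a black line at each group's mean and a dotted line at 3 counts plus 1, grouped by what the enzymes cleave or bind. Adamts1, 7 and 10 stayed above 100 with EMO, Adamts2, 4, 9 and 12 lay near the dotted line, and the groups of Adamts6 lay close together.

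The proteinases that cleave hyalectans showed the largest fall and both of the least abundant members. Adamts9 (chr4:124660262-124858250, minus strand, deposited coordinates on Rnor_6.0) had 5589, 6125 and 5599 counts with TNF-α and 1, 4 and 5 with EMO. Its normalised count, the count scaled by library size and TMM factor, was 5636 ± 292 (SD, n = 3) against 3.41 ± 2.12. The log2 fold change was -10.64 (SE 0.16, edgeR adjusted p = 2.0e-12), the 34th lowest of all tested genes. Each edgeR SE given here is the size of the change over the square root of the test's F statistic. It understates the error where few counts are left, and DESeq2 gave an SE of 0.46 for Adamts9. With so few counts left the size is uncertain, and the ratio of summed counts was 1651 with a 95% counting interval of 897 to 3443. Adamts4, the inducible aggrecanase (chr13:89622632-89634419, plus strand), had 520, 556 and 510 counts with TNF-α and 9, 5 and 10 with EMO. It fell by 5.96 on the log2 scale (SE 0.19, edgeR adjusted p = 2.5e-10), and its ratio was 63.0 (42.2 to 98.6). In these cases every TNF-α library was far above every EMO library. Adamts1, which also cleaves versican and binds VEGF (chr11:25342126-25350974, minus strand), had 1727, 1727 and 1740 counts with TNF-α and 152, 178 and 157 with EMO. It fell by 3.35 (SE 0.09, edgeR adjusted p = 5.4e-11), a ratio of 10.2 (9.27 to 11.2). The TNF-α libraries of Adamts1 were nearly equal, with a coefficient of variation of 0.357%, the lowest among the called members.

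Adamts5, with Adamts4 the main cartilage aggrecanase (chr11:25410975-25456836, minus strand), had 9, 3 and 6 counts with TNF-α and 0, 0 and 0 with EMO. Its groups did not overlap, but it did not reach the count minimum and was not tested. Against the limit that a count of 0 allows, 3 counts per library, it was at least 1.91-fold lower with EMO. Adamts15 (chr8:31977001-32000378, minus strand), another versican-cleaving enzyme, had 6, 0 and 2 counts with TNF-α and 0, 4 and 0 with EMO, so that the groups overlapped and no difference was detectable at this depth. Adamts5 lies 60000 bases from Adamts1 on chromosome 11. These neighbours differed widely in abundance with TNF-α, where Adamts1 was at a level of 22.4 RPKM and Adamts5 at 0.107 RPKM.

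Adamts2 is the procollagen N-proteinase, which removes the amino-terminal propeptide of fibrillar procollagens (chr10:36098051-36304409, plus strand). It had 1645, 1616 and 1548 counts with TNF-α and 5, 13 and 6 with EMO. It fell by 7.56 on the log2 scale (SE 0.18, edgeR adjusted p = 3.2e-11), and its ratio was 191 (128 to 298). The EMO libraries spread over a coefficient of variation of 54.4%, against 3.42% with TNF-α, and the highest of them was still more than 100 times under the lowest TNF-α library.

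The proteinases that cleave COMP, Adamts7 and Adamts12, fell to different extents. Adamts7 (chr8:97535777-97575655, plus strand) had 3856, 3555 and 3495 counts with TNF-α and 341, 247 and 320 with EMO. It fell by 3.52 (SE 0.11, edgeR adjusted p = 3.3e-10), a ratio of 11.5 (10.7 to 12.3). Adamts12 (chr2:61039053-61340697, plus strand) had 1557, 1734 and 1572 counts with TNF-α and 13, 11 and 10 with EMO. It fell by 7.08 (SE 0.13, edgeR adjusted p = 6.0e-12), a ratio of 136 (97.5 to 197). Neither gene's groups overlapped. Within each library, the log2 ratio of Adamts7 to Adamts12 counts (1 count added to each) was 1.17 ± 0.14 with TNF-α and 4.62 ± 0.25 with EMO, a difference of 3.45.

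The members that act on fibrillin microfibrils also parted. Adamts10 (chr7:18409147-18439012, plus strand) had 1818, 1671 and 1788 counts with TNF-α and 177, 200 and 193 with EMO. It fell by 3.14 (SE 0.08, edgeR adjusted p = 7.3e-11), a ratio of 8.83 (8.09 to 9.64), the smallest among the called members. Adamts6 (chr2:34374158-34586755, plus strand) had 98, 100 and 98 counts with TNF-α and 86, 68 and 58 with EMO. Its log2 fold change was -0.41 (SE 0.21, 95% interval -0.87 to 0.05, edgeR adjusted p = 0.087), which did not pass. The normalised counts were 96.4 ± 1.05 and 72.5 ± 15.0 and did not overlap, with the EMO libraries spread more widely. Adamts6 gave an adjusted p under 0.05 in some other settings, with a fold change under the threshold in each. Its interval excludes a fall of the size seen in the other tested members. The log2 ratio of Adamts6 to Adamts10 was -4.14 ± 0.08 with TNF-α and -1.43 ± 0.36 with EMO.

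Over the 5 ratios of related members that were compared, the ratios of Adamts4 to Adamts5, Adamts1 to Adamts15, Adamts7 to Adamts12 and Adamts6 to Adamts10 did not overlap between the groups. Each gave p = 0.1 in a two-sided exact permutation test, the smallest that 3 libraries against 3 allow, and 0.125 after adjustment over the 5. The first pair moved by -3.22 and the second by -2.72, with the denominators at or near 0 in the EMO libraries, so these values depend on the added count. The ratio of Adamts2 to its close relative Adamts14 was 2.50 ± 0.04 and 1.68 ± 0.99 (exact p = 0.4), a difference of -0.82. With 3 counts added in place of 1 it was -1.32 (exact p = 0.1), and with 1 library left out it ran from -0.48 without TNF-α+EMO replicate 1 to -1.39 without TNF-α+EMO replicate 2. None of the 5 ratios could reach p under 0.05 with 3 libraries a group.

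**Figure D2:**
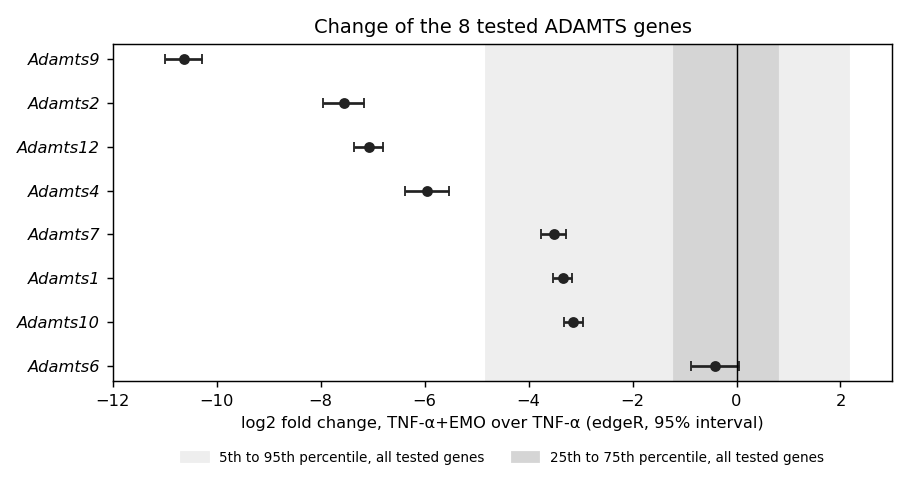
Log2 fold change with EMO (edgeR, 95% interval) of the 8 tested ADAMTS genes, over grey bands for the 5th to 95th and the 25th to 75th percentile of all tested genes. The intervals are built on the edgeR SE. For Adamts9, 2, 12 and 4 they are narrower than counting error alone allows. Adamts9, 2, 12 and 4 lie below the 5th percentile of -4.81, Adamts7, 1 and 10 lie between it and the 25th percentile of -1.21, and Adamts6 lies in the middle band.

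The change of the members can be set beside that of all genes. The median log2 fold change over all tested genes was -0.01, and 90% of genes lay between -4.81 and 2.17. Adamts2, Adamts4, Adamts9 and Adamts12 were below this range. The called members ran from -10.64 to -3.14. Their coefficient of variation was 0.357% to 5.90% with TNF-α and 5.74% to 62.1% with EMO, and the upper end of the latter belonged to Adamts9 with its 10 counts over 3 libraries.

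Levels per gene length, in RPKM computed from the TMM-scaled counts and the deposited gene lengths, allow the members to be ordered. With TNF-α, Adamts9 was highest at 41.2 ± 2.13 (SD, n = 3), above 82.8% of the tested genes. Adamts7 followed at 33.8 ± 1.93, and Adamts10 (22.8 ± 1.06) and Adamts1 (22.4 ± 0.08) came next with overlapping libraries. Below these lay Adamts2 (13.9), Adamts12 (10.7), Adamts4 (5.33) and Adamts6 (1.6), each apart from its neighbours, and then Adamts5 and Adamts15, which overlapped. With EMO, Adamts7 (2.95 ± 0.49) and Adamts10 (2.59 ± 0.15) were highest and overlapped, followed by Adamts1 (2.20 ± 0.18) and Adamts6 (1.20 ± 0.25). Adamts4, Adamts12 and Adamts2 were between 0.0727 and 0.0846 and overlapped. Adamts9 had dropped from the highest member to the 8th, at 0.0249 ± 0.0155, above 2.59% of the tested genes and overlapping Adamts15.

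The summed level of the 10 genes was 153.9, 153.3 and 148.4 with TNF-α and 9.56, 9.01 and 9.08 with EMO. The sum was 16.5-fold lower with EMO, and 12.0-fold lower without Adamts9. With 3 libraries a group, the exact permutation test could give no p under 0.1, which was its value here. The makeup of the sum changed as well. With TNF-α, Adamts9 held 27.1 ± 1.24% of it, Adamts7 22.3 ± 1.00%, Adamts10 15.0 ± 0.80% and Adamts1 14.7 ± 0.32%. With EMO, Adamts7 held 32 ± 4.57%, Adamts10 28.1 ± 2.48%, Adamts1 23.9 ± 2.59% and Adamts9 0.274 ± 0.173%. The share of Adamts6 went from 1.05 ± 0.02% to 13 ± 2.30% of a sum that had become smaller, while its own level was 1.6 and 1.20 RPKM.

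**Figure D3:**
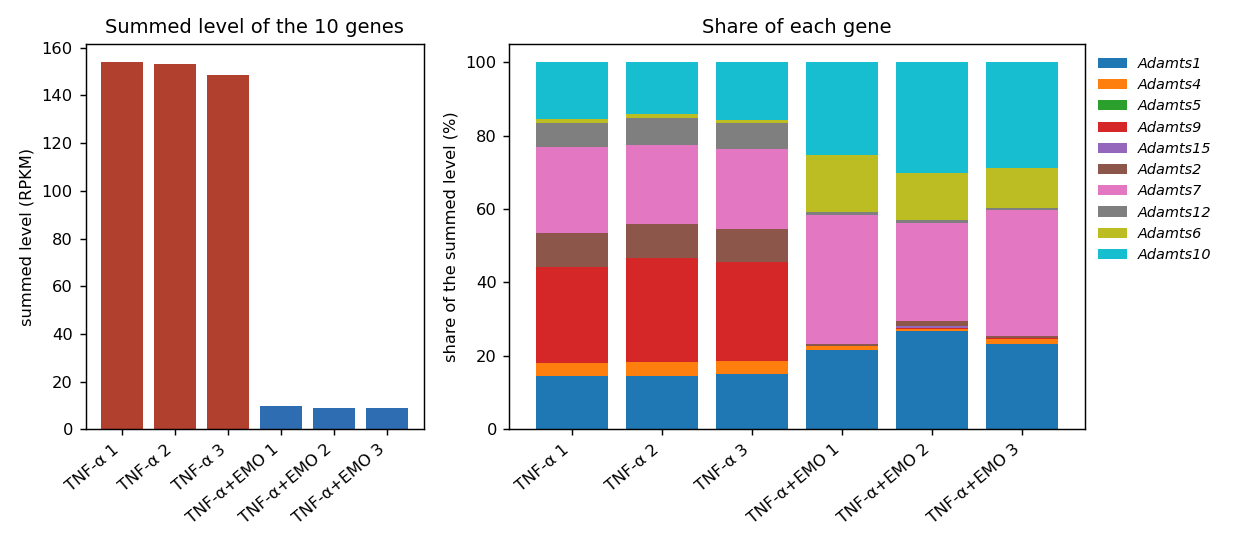
Left, the summed level of the 10 ADAMTS genes in each library (bars from 0, RPKM); right, the share of each gene in that sum, in percent. The TNF-α libraries sit at 148 to 154 with Adamts9 (red) as the largest share, and the EMO libraries at 9.01 to 9.56 with Adamts7 (pink), Adamts10 (light blue) and Adamts1 (dark blue) making up most of it.

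Of the 9 other ADAMTS proteinases in the table, 2 were tested and both were called lower, beside the 27.8% of all genes. Both met the count minimum through the TNF-α group alone, a route that favours genes that fall, and nothing is read from their count. Adamts14, a further procollagen N-proteinase, had 296, 277 and 275 counts with TNF-α and 2, 1 and 2 with EMO, a ratio of 162 with a 95% counting interval of 69.0 to 499 (edgeR adjusted p = 4.8e-10). Adamts17, a fibrillin-associated enzyme, had 36, 30 and 18 counts against 1, 3 and 2, a ratio of 13.3 with a counting interval of 5.88 to 37.4 (edgeR adjusted p = 5.3e-05). Adamts20 went the other way without reaching the test, with no count in the TNF-α group and 24, 8 and 20 in the EMO libraries, at least 6.06-fold more. Adamts13 was also higher and not tested, with 1, 2 and 1 counts with TNF-α and 4, 4 and 6 with EMO, a ratio of TNF-α to EMO of 0.272 (0.0653 to 0.867), in a gene that overlaps Cacfd1, which had up to 547 counts. Adamts8, which lies 18181 bases from Adamts15, had 9, 8 and 3 counts with TNF-α and 0 in each EMO library, at least 2.12-fold lower. Adamts3 and Adamts18 had 0 counts in all 6 libraries. The ADAMTS-like proteins share the thrombospondin repeats and have no proteinase domain. Of 4 tested, 2 were called lower and 1 higher, beside 27.8% and 19.5% of all tested genes. Adamtsl2 had 191, 200 and 152 counts with TNF-α and 3, 2 and 1 with EMO, a ratio of 86.3 (39.4 to 236), and Adamtsl4 fell by 3.42 (edgeR adjusted p = 1.9e-10). Adamtsl5 rose from a normalised count of 441 ± 64.6 to 1385 ± 154 (log2 fold change 1.65, SE 0.12, edgeR adjusted p = 2.0e-07). Adamtsl3 was at -1.42 (edgeR adjusted p = 0.058), and the list's median was -2.42. Adamtsl2 and Adamtsl3 entered the test through the TNF-α group alone.

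The tested tissue inhibitors of these enzymes, the clearance receptor Lrp1 and the cell-surface proteoglycans Sdc1 and Sdc4 were lower as well. All 6 tested genes of 9 in the list were called lower, beside 27.8% of all tested genes, with a median log2 fold change of -2.63. Timp3, the main inhibitor of the aggrecanases, fell from 1510 ± 132 to 227 ± 36.9 normalised counts (-2.73, SE 0.12, edgeR adjusted p = 3.6e-09). Timp2 fell by 3.41 and Timp1 by 1.05. Lrp1, the endocytic receptor that removes several ADAMTS proteinases from the matrix, fell by 3.22. The cell-surface proteoglycans Sdc1 and Sdc4 had log2 fold changes of -2.53 and -1.5. Timp4 had 0 counts in all libraries, and A2m was at 4 counts or fewer.

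Genes for maturation and secretion were mixed. Of 8 tested, 5 were called lower and 1 higher, beside 27.8% and 19.5% of all tested genes, with a median of -1.44. Furin, the convertase that removes the propeptide of many ADAMTS precursors, fell by 1.65 and Pcsk5 by 1.23, while Pcsk6 rose by 1.07 (SE 0.16, edgeR adjusted p = 9.9e-05). B3glct, which completes the sugar on thrombospondin repeats, fell by 1.98, and the mannosyltransferases Dpy19l1 and Dpy19l3 fell by 2.39 each. Pcsk7 at -0.50 (edgeR adjusted p = 9.9e-04) did not pass the fold threshold. Nor did Pofut2, which adds fucose to the repeats, at 0.39 (edgeR adjusted p = 0.0017).

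Of the substrates in the matrix 10 of 11 tested genes were called lower, beside 27.8% of all tested genes, with a median of -5.69. Vcan, the hyalectan versican, fell from 38868 ± 1840 to 111 ± 16.5 normalised counts (-8.45, SE 0.11, edgeR adjusted p = 1.1e-12). Col1a1 and Col3a1, both procollagens that Adamts2 trims, fell with log2 fold changes of -4.91 and -8.76. The thrombospondins Thbs1 (-8.10) and Thbs2 (-10.61) and the small proteoglycan Bgn (-2.88) fell as well. Fmod, another small proteoglycan, had 364, 408 and 312 counts with TNF-α and 0, 2 and 3 with EMO, a ratio of 207 (88.3 to 638). Comp had 8, 8 and 15 counts with TNF-α and 0 in each EMO library, at least 3.28-fold lower and not tested. Ncan, a hyalectan of the nervous system, had 1, 1 and 0 counts against 8, 4 and 11, and the cartilage procollagen Col2a1 had 0 with TNF-α against 2, 5 and 3, at least 1.16-fold higher, neither of them tested. Acan, the aggrecan core protein of cartilage, had 0 counts in all 6 libraries. The exception was Reln, which rose by 3.28 (SE 0.27, edgeR adjusted p = 5.5e-07). Fmod met the count minimum through the TNF-α group alone and Reln through the EMO group alone.

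Cytokines, receptors and transcription factors known to induce ADAMTS genes gave 8 called lower and 2 higher of 13 tested. Over all tested genes these shares were 27.8% and 19.5%. The median of the list was -1.69. The interleukin-1 receptor Il1r1 (-2.91), the TNF receptor Tnfrsf1b (-1.69), the cytokine receptor chains Il6st (-1.82) and Osmr (-1.5) and the transcription factor Runx2 (-2.07) fell on the log2 scale. Jun rose by 1.92 and Il6 by 1.23, while Sox11 (-3.03) and Fos (-3.53) were called lower. Fos met the count minimum through the TNF-α group alone. The cytokine Il1a had 44, 58 and 54 counts with TNF-α and 0, 1 and 0 with EMO, a ratio of 149 (26.3 to 5912). It met the count minimum through the TNF-α group alone. Il1b had 6, 4 and 13 counts with TNF-α and 0 in each EMO library, at least 2.44-fold lower and not tested. Tnf, which overlaps other listed genes with up to 1354 counts, had 2, 6 and 3 against 0, 0 and 0, at least 1.16-fold lower and not tested. Rela was at 0.10 (SE 0.06, edgeR adjusted p = 0.13). Nfkb1 at -0.91 (edgeR adjusted p = 1.5e-07) and Tnfrsf1a at -0.75 (edgeR adjusted p = 6.6e-07) were lower but stayed within the fold threshold.

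**Figure D4:**
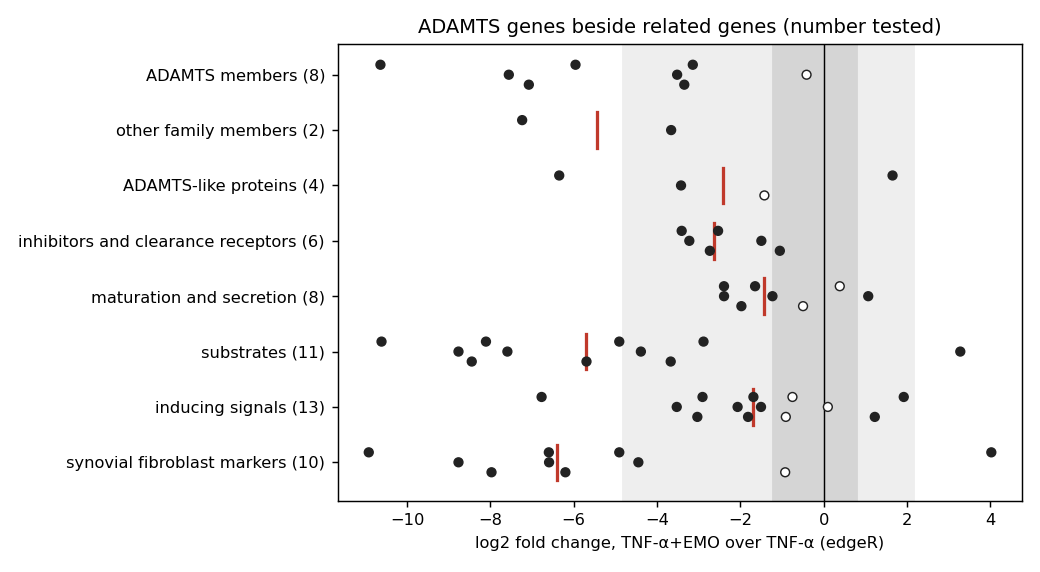
Log2 fold change with EMO (edgeR) of the tested ADAMTS genes and of 7 lists of related genes, with filled points for called genes, open points for the rest, a red line at the median of each of the 7 lists and grey bands as in the plot of member changes. Among the lists with 10 or more tested genes, the medians are -5.69 for substrates, -6.39 for fibroblast markers and -1.69 for inducing signals. With genes at 3 counts or fewer in 1 group set at their bound, the fibroblast median is -5.55. The other family members, with 2 tested, have a median of -5.45, or -4.82 with bounds. Col1a1 and Col3a1 are in both the substrates and the fibroblast markers.

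The label of the cells was checked against markers. Of 10 tested fibroblast markers 8 were called lower and 1 higher, beside 27.8% and 19.5% of all tested genes. Their median was -6.39, or -5.55 with the genes at 0 set at their bound. Pdgfra (-6.59), Pdgfrb (-4.45), Cdh11 (-6.20) and Col6a1 (-6.60) fell on the log2 scale, and Lum was at least 78.6-fold and Fap at least 10.2-fold lower. Vim was at -0.92 (edgeR adjusted p = 2.5e-08), under the fold threshold. Dcn rose from 0, 4 and 1 counts to 33, 24 and 26. Lum and Fap entered the test through the TNF-α group alone and Dcn through the EMO group alone. The lining markers Prg4 and Pdpn and the sublining marker Thy1 were at 7 counts or fewer in every library. The summed level of the 13 fibroblast markers in the table was 3497 to 3721 with TNF-α and 1016 to 1097 with EMO, mostly Vim in the latter. This sum moved with the ADAMTS sum, and its part in the result was not tested. In RNA from whole cultures, fewer cells of a type and less RNA per cell cannot be told apart. Several defining markers of other cells were at or near 0 in both groups. Ptprc, Cd163, Kdr, Epcam, Acan and Col9a1 had at most 1 count in any library. Of the 9 leukocyte markers 3 were tested, with Cd14 lower and Itgam higher (10 to 14 counts with EMO, in a gene that overlaps Itgax). Cd68 was at 0.75 (edgeR adjusted p = 2.4e-04), under the fold threshold. The summed level of the 9 was 43.3 to 46.6 with TNF-α and 28.6 to 31.0 with EMO. Csf1r and Cd79a were at 5 counts or fewer in every library. The summed level of the endothelial markers was 0.560 to 0.668 with TNF-α and 0.172 to 0.233 with EMO, with Vwf called lower (-3.55, edgeR adjusted p = 3.1e-05), and that of the chondrocyte markers 7.61 to 9.15 and 0.0830 to 0.164, nearly all of it Sox9 (548, 490 and 459 counts with TNF-α and 6, 1 and 5 with EMO). The epithelial markers summed to 298 to 323 and 59.3 to 69.7, nearly all of it Krt8, which was called lower (-2.28). Cldn4 went the other way and was called higher, with 0 counts in each library of the TNF-α group and 16, 17 and 28 with EMO, at least 7.10-fold more. Vwf and Sox9 met the count minimum through the TNF-α group alone, and Itgam and Cldn4 through the EMO group alone. Entry by these routes favours genes that differ. Krt18 was at 1 count or fewer. Krt7 (17, 22 and 7 counts with TNF-α), Krt19 (3, 8 and 5) and Cdh1 (6, 2 and 0) were at 1 count or fewer with EMO and not tested.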

How the data were processed

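RNA was measured in 3 TNF-α and 3 TNF-α+EMO libraries, poly(A)-selected and sequenced in pairs. Per the submitters' processing notes, FastQC, Trimmomatic and HISAT2 were used with build Rnor_6.0. The annotation release, counting program and strand setting are not given in the sources used here, so reads of overlapping antisense genes may be mixed. The authors deposited raw counts per gene, gene length and FPKM, which scales counts by length and mapped reads. Deposited FPKM was 0.990 to 1.00 times the level computed here for members with at least 10 counts. The authors' own comparison columns (group means, log2 fold change, p-values) were not used.

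Counts were fitted with edgeR 4.0.16 (R 4.3.3, limma 3.58.1), with TMM factors (0.948 to 1.05), a filter of at least 10 counts in at least 3 libraries, robust quasi-likelihood tests and Benjamini-Hochberg adjustment over 13614 genes. DESeq2 1.42.0 was an alternative. The fit was tested on simulated counts for 13503 genes, where edgeR called 100% of the 192 genes made to change and 1.03% of its calls were false. In the data 6442 of 13614 genes were called. The simulation therefore does not show how the fit performs when so many genes change. Other alternatives were size factors, upper-quartile factors, library totals, other filters and thresholds, a replicate block, each library left out, FPKM in place of levels, and another added count for ratios. The leave-one-out fits with the tested genes held fixed were added after seeing the data. The floor was 3 counts per library, and intervals and floors cover counting error only.

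The members and lists were chosen with earlier results of these data known. All 10 members are named, and of each list the called genes, at most 6 by mean count, and those at the floor in 1 group. Genes named outside this rule (Reln, Il6, Sox11, Fos, Rela, Nfkb1, Tnfrsf1a, Pcsk7, Pofut2, Adamtsl3, Vim, Dcn, Cd68 and genes at or near 0 in all libraries) were chosen after their values were seen. Col1a2, Sox4, Thsd4, Adamtsl1 and Pecam1 were not analysed here. Promoter sequences are RefSeq's, build GRCr8.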

Additional observations from a re-analysis of the deposited data

How the results depend on the processing

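The 7 members were called lower with edgeR under DESeq2 size factors, upper-quartile factors and library totals, and with DESeq2. The filter of 10 counts in all 6 libraries left 5 members to fit, of which 4 were called. With no filter Adamts5 was called as well (-5.58, edgeR adjusted p = 0.0027), and Adamts15 was at -0.88 (0.558). Leaving out 1 library gave 6 to 7 called members, 5406 to 6462 calls over all genes, 39 to 52 among the lists, and a difference in summed level of -144.38 to -141.64. The 6 came without any 1 of the TNF-α replicates, when Adamts9 no longer met the filter; with the tested genes held fixed it was 7. Over all genes, 6442 calls became 11008 with adjusted p alone and 3064 with an absolute log2 fold change over 2. Adamts6 gave an edgeR adjusted p of 0.039 with library totals (-0.52), 0.036 with 10 counts in all 6 libraries (-0.49), and 0.031 without TNF-α+EMO replicate 1 (-0.56, or -0.59 with the tested genes fixed), and was at -0.26 without TNF-α+EMO replicate 3. The cause was not tested. With the replicate number as a block, 7 members, 6421 genes and 51 list genes were called. Same-numbered libraries did not deviate together (correlations 0.020, -0.0038 and 0.062), so the numbers were not taken as a pairing. Library totals moved the median of all genes from -0.01 to -0.12.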
